A study of Mus musculus with 18 samples.

Results

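Untreated mouse embryonic fibroblasts homozygous for a mutant of TGFb signalling were compared with untreated wild-type (wt) fibroblasts. The comparison was chosen by genotype and treatment alone and rests on 4 of the 18 Affymetrix expression arrays of the series, 2 of homozygous and 2 of wt cells. By the title of the series the point mutation lies in TGFBR1, whereas the design text names TGFb1 and describes the mutant as constitutively active. It is therefore referred to only as the mutant. The other arrays, 2 per group, hold untreated heterozygous cells and cells of all 3 genotypes after 5 ng/mL TGFb1 for 4 h or 24 h. All cells were cultured in serum from E12.5 to E14.5 fetuses that had been freed of head, liver and clotted blood and digested with trypsin. Untreated cells are those without TGFb, which the design text calls vehicle with no duration. The sources used here give no strain, passage number or number of embryos per culture. The labels do not state whether paired arrays stem from different embryos or cultures. A p-value therefore reflects the spread between the arrays at hand.

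TGFb ligands are secreted in a latent form, held in the matrix by binding proteins and freed by integrins and proteases. The active ligand binds the type II receptor TGFBR2, which phosphorylates the type I receptor TGFBR1. TGFBR1 then phosphorylates the transcription factors SMAD2 and SMAD3, which enter the nucleus with SMAD4. Among their targets are inhibitors of the pathway itself, such as Smad7, Skil and Pmepa1. In fibroblasts the pathway is known for raising collagens, elastic fibre proteins and contractile proteins and for restraining the cell cycle.

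Values are log2 GCRMA intensities, a difference is the homozygous minus the wt mean, and its error is the standard error (SE) of the fit for 2 arrays against 2. Below log2 5 a level was taken as too dim to measure. All 14 fibroblast markers lay above that level in each of the 4 arrays, with a mean over the list of 12.27 and 12.32 in homozygous cells and 12.30 and 12.05 in wt cells. Of 16 endothelial markers 3 passed the filter, Flt1, Emcn and Egfl7, which lay between 6.76 and 9.79 in the untreated arrays with no call between homozygous and wt cells, while Pecam1 and Cdh5 lay at 2.22 or below. Myod1, which defines muscle precursors, lay at 2.08 or below, although other muscle markers were measured. Xist, transcribed from the inactive X chromosome of female cells, lay at 11.88 and 1.58 in homozygous cells and at 11.64 and 1.58 in wt cells. The Y-linked gene Eif2s3y showed the opposite, with 2.86 and 10.78 in homozygous cells and 3.00 and 10.75 in wt cells. Each pair thus held 1 array of either sex pattern, so its arrays come from different embryos and the spread between them is not technical alone, whereas both heterozygous arrays had Xist at 11.77 and 11.73. The homozygous pair was the more alike: 54 genes differed over 2-fold between its arrays, against 484 between the wt arrays, and the root mean square SD between replicates was 0.192 against 0.379 log2.

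Of 10078 genes tested, 178 passed an adjusted p of 0.05 (limma, Benjamini-Hochberg), which is 1.77%. Homozygous cells were higher for 116 of them (1.15% of the genes tested) and lower for 62 (0.615%). The difference was over 2-fold for 42 of the higher genes (0.417%) and for 24 of the lower genes (0.238%). Of the 15 largest rises 6 were of the macrophage list, and the 15 largest falls included Crabp1, which binds retinoic acid, and Osr1, a transcription factor of mesenchyme. The homozygous arrays did not overlap the wt arrays for any of the 178, but that alone is common: 22.2% of all genes tested had both homozygous arrays above both wt arrays and 24.6% had both below. Leaving out 1 array changed the count to 960 without wt replicate 1, 62 without wt replicate 2, 11 without homozygous replicate 1 and 13 without homozygous replicate 2. With array weights the count was 10, with the homozygous and wt arrays of all times alone it was 70, and with only the 4 arrays compared it was 0 (1225 at an unadjusted p under 0.05, against 1811 in the full fit).

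**Figure D1:**
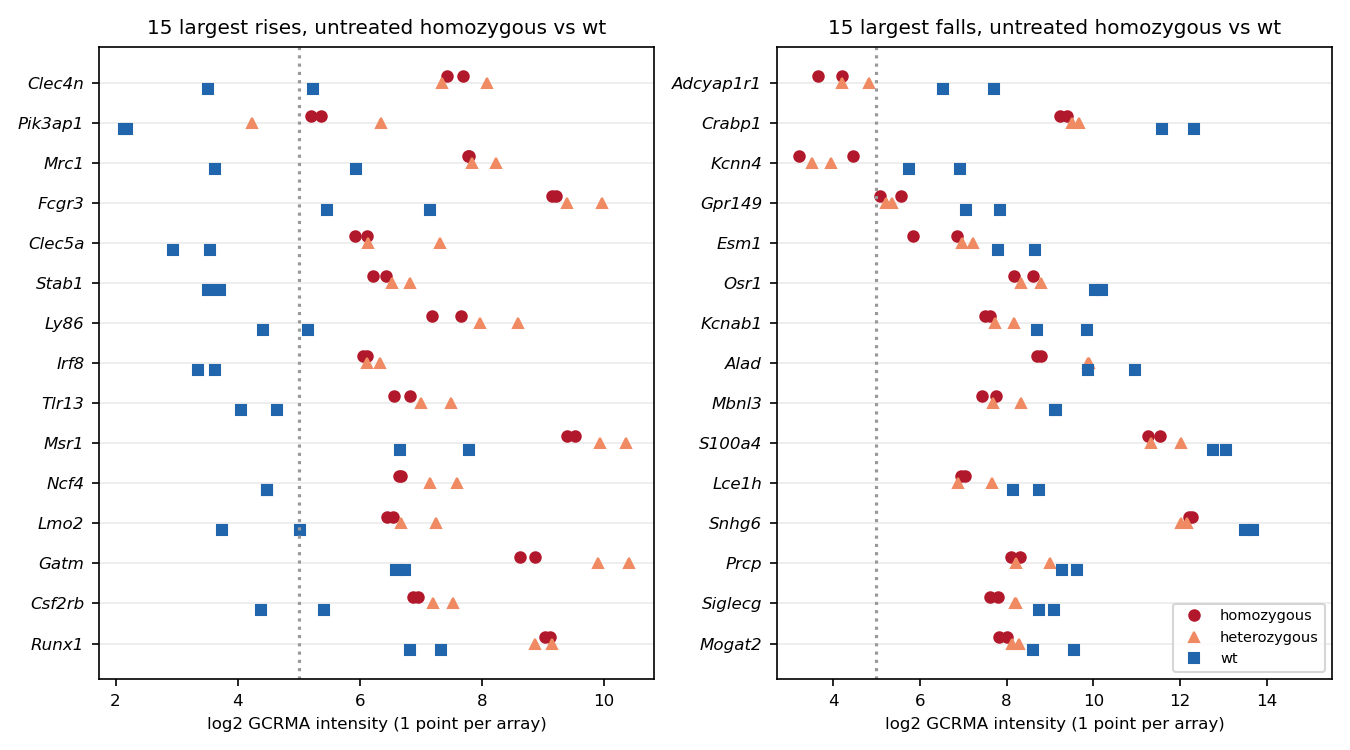
Log2 GCRMA intensity (horizontal axis) of the 15 largest rises (left) and 15 largest falls (right) in untreated homozygous against wt cells, 1 point per array, with heterozygous arrays for comparison and a dotted line at log2 5. For every gene shown both homozygous points lie on the same side of both wt points, as the rule that chose the genes requires. For Pik3ap1, Clec5a, Stab1, Irf8, Tlr13 and Ncf4 both wt points lie left of the line.

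Macrophages are phagocytes that spread through the embryo early and depend on the receptor Csf1r and on the transcription factor PU.1, the product of Spi1. Of 31 macrophage and myeloid markers, 31 were measured, 8 were higher and 0 lower in homozygous cells, which is 25.8% called against 1.77% of all genes. Their median difference was 1.99 log2, against -0.02 over all genes tested, and 1.83 with dim groups set at log2 5. The count moved with single arrays and was 19 without wt replicate 1 and 0 without any of the other 3 arrays. In all 31 genes both homozygous arrays lay above both wt arrays, against 22.2% of all genes tested. The 31 values come from the same arrays and are not separate observations of the genotypes. In bulk RNA fewer cells of a type and less RNA per cell cannot be told apart.

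Clec4n, a C-type lectin of myeloid cells, had 7.43 and 7.69 in homozygous cells, against 5.23 and 3.51 in wt cells (difference 3.19 ± 0.70 SE, adjusted p = 0.0426). Mrc1, the mannose receptor, had 7.77 and 7.78 in homozygous cells and 5.94 and 3.63 in wt cells (2.99 ± 0.65, adjusted p = 0.0422). Fcgr3, an immunoglobulin receptor, had 9.21 and 9.15 in homozygous cells and 7.15 and 5.46 in wt cells (2.87 ± 0.63, adjusted p = 0.0426). In each of these 3 the homozygous arrays were nearly equal and wt replicate 2 was the lowest, well under wt replicate 1. Msr1, a scavenger receptor, showed the same order at 9.39 and 9.52 in homozygous cells and 7.78 and 6.65 in wt cells (2.23 ± 0.38, adjusted p = 0.0157). The called markers Ly86, a partner of the receptor Cd180, Ctss, a lysosomal protease, Cx3cr1, the fractalkine receptor, and Pik3ap1, an adaptor for PI3 kinase, differed by 1.47 to 3.11. For Pik3ap1 both wt arrays were dim, so its rise is given as at least 1.22-fold.

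Some of the large rises outside that list were of genes known from myeloid cells, and they were grouped so after their values were seen. Stab1, a scavenger receptor of macrophages and some endothelia, had 6.44 and 6.22 in homozygous cells against 3.71 and 3.51 in wt cells. Irf8, a transcription factor of the monocyte lineage, had 6.11 and 6.05 in homozygous cells against 3.64 and 3.35 in wt cells. Both wt arrays were dim for these 2 genes, so Stab1 rose at least 2.51-fold (adjusted p = 0.00018) and Irf8 at least 2.12-fold (adjusted p = 0.00388). The lectin Clec5a rose at least 2.02-fold, the RNA-sensing receptor Tlr13 at least 3.24-fold and Ncf4, a subunit of the phagocyte oxidase, at least 3.17-fold. Csf2rb, the shared receptor chain for GM-CSF and interleukins, rose by 2.01 ± 0.39 and Lmo2, a cofactor of blood cell transcription factors, by 2.11 ± 0.41, each with 1 wt array at or near the dim level.

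Runx1, Gatm and Apoe are not restricted to macrophages, and in these all 4 arrays lay above log2 5. Runx1, a transcription factor of blood and mesenchymal cells, had 9.11 and 9.03 in homozygous cells and 7.34 and 6.82 in wt cells (1.99 ± 0.20, 3.98-fold, adjusted p = 0.000422). Gatm, which makes the creatine precursor guanidinoacetate, had 8.62 and 8.87 in homozygous cells and 6.75 and 6.59 in wt cells (2.07 ± 0.21, 4.21-fold, adjusted p = 0.0005). Apoe, a lipid carrier, had 10.23 and 10.37 in homozygous cells and 8.10 and 8.91 in wt cells (1.80 ± 0.28, adjusted p = 0.0119). The gap between genotypes exceeded the gap between replicates in all 3. They were named for being called with large differences, and no called gene had overlapping arrays, so this adds no support. Of 4 further probe sets for Runx1, 3 rose by 1.01 to 1.14, and the fourth, which was dim in all 4 arrays, differed by -0.02.

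The summed intensity of the macrophage markers was 32237 and 33775 in homozygous cells and 13923 and 5004 in wt cells. Untreated heterozygous arrays, with 53617 and 42230, were higher than either. Of the markers that define the list, Csf1r had 9.90 and 10.01 in homozygous cells and 8.79 and 7.83 in wt cells, Tyrobp 9.54 and 9.61 against 7.86 and 6.99, and C1qa 9.49 and 9.85 against 8.01 and 6.49. Ptprc had 7.18 and 7.37 in homozygous cells and 5.60 and 4.49 in wt cells, and Itgam 5.14 and 5.27 against 3.84 and 3.82. Cd68 had 7.27 and 7.59 in homozygous cells and 5.90 and 5.54 in wt cells. These 6 genes did not pass the test (adjusted p = 0.0747 to 0.151), and none was dim in homozygous cells. The homozygous arrays were above the wt arrays in each, as in 22.2% of all genes tested. With the mean of the macrophage markers as a covariate, 67 of the 178 genes were still called and all 178 kept their direction, while more genes in total were called than without it. That mean itself differs between the genotypes, at 8.39 and 8.49 in homozygous and 6.96 and 5.87 in wt arrays. The fit therefore cannot show what would remain without macrophage RNA.

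**Figure D2:**
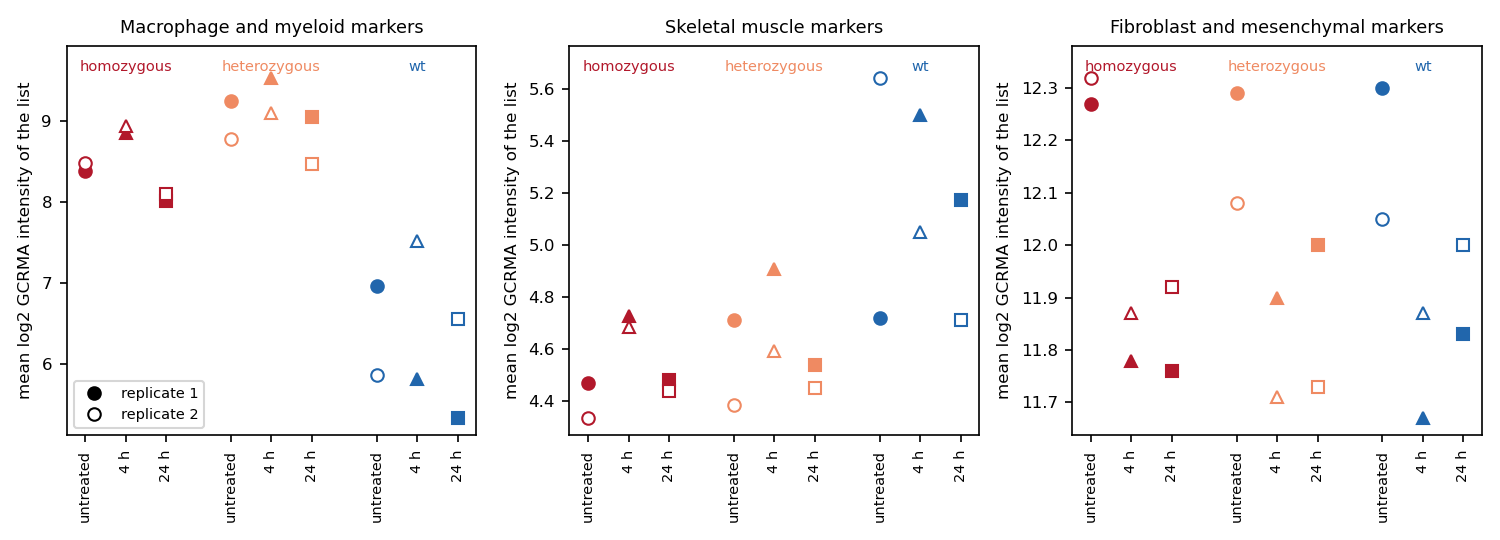
Mean log2 GCRMA intensity (vertical axis) of the macrophage, skeletal muscle and fibroblast markers in each of the 18 arrays, by genotype and time, with filled symbols for replicate 1 and open symbols for replicate 2. Untreated homozygous arrays lie at 8.39 and 8.49 for macrophage markers against 6.96 and 5.87 in wt, and at 4.47 and 4.33 for muscle markers against 4.72 and 5.65.

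PU.1 is known to bind purine-rich sites that hold the letters GAGGAA, called the PU box. Promoter windows of the RefSeq table (GRCm38.p6), from 250 bases before to 50 after a gene's start, were searched for GAGGAA on both strands, with TTCCTC as its reverse. The motif was present in 6 of the 10 largest rises that had a window (60%) and in 7 of the 11 largest falls (63.6%). It was in 29 of 80 genes called higher (36.2%), in 19 of 43 called lower (44.2%), in 25.8% of all genes tested with a window and in 28.3% of all 27025 promoters in the table. The windows of 3 myeloid genes among the largest rises are printed with that of Crabp1, the most significant fall, since each holds the motif, shown in capitals on whichever strand it lies. They lie at chr2:14229164-14229463 on the plus strand for Mrc1, at chr6:40585756-40586055 on the minus strand for Clec5a, at chr14:31168592-31168891 on the minus strand for Stab1 and at chr9:54764498-54764797 on the plus strand for Crabp1, each written 5′ to 3′ along the gene.
Mrc1: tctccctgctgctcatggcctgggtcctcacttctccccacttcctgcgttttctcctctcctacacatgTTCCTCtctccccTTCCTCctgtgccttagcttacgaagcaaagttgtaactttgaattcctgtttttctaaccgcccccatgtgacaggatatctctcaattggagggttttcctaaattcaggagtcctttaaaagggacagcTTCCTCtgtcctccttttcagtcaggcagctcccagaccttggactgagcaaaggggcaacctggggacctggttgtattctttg
Clec5a: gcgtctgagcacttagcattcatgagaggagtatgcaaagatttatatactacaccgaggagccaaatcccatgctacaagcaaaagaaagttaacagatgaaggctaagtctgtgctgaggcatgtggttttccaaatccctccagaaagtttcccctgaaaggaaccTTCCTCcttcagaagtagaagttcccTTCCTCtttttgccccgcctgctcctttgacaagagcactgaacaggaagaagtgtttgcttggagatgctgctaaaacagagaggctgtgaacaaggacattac
Stab1: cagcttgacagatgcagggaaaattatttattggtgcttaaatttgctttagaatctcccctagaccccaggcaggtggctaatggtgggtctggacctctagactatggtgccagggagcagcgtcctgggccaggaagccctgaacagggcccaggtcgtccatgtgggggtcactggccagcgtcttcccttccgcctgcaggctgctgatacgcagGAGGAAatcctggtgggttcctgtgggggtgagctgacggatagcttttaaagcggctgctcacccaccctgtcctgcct
Crabp1: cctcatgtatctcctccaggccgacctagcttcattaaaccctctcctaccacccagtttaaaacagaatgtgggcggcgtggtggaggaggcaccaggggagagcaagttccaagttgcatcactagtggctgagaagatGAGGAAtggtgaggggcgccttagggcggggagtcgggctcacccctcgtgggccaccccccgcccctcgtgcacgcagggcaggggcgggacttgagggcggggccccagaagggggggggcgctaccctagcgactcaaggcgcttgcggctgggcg
The Mrc1 window held 3 matches, that of Clec5a 2, and those of Stab1 and Crabp1 1 each. A match is a description of these letters and shows no binding.

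Skeletal muscle markers ran the other way, with no call. Of 25 markers 12 passed the filter, 0 were called, and all 12 had a negative difference with a median of -1.34. Acta1, skeletal actin, had 9.56 and 9.59 in homozygous cells and 11.54 and 10.73 in wt cells (adjusted p = 0.172). Myog, a regulator of muscle differentiation, was dim in both homozygous arrays (3.91 and 3.43) and in wt replicate 1 (4.34), and lay at 6.43 in wt replicate 2. The summed intensity of the muscle list was 1895 and 1711 in homozygous cells and 4300.5 and 6324 in wt cells. In 9 of the 12 both homozygous arrays lay below both wt arrays, against 24.6% of all genes. Acta1 was highest in wt replicate 1, but some markers were raised mainly in wt replicate 2. Tnni1 had 6.81 and 6.50 in homozygous cells and 6.29 and 8.84 in wt cells, and Tnnc1 7.10 and 6.81 against 7.15 and 9.40. The part of these marker differences in the other results was not tested beyond the covariates described.

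Among ligands and latency genes, homozygous cells had more RNA of 2 of the 3 TGFb genes. Tgfb1 lay at 10.42 and 10.34 in homozygous cells and at 9.58 and 9.89 in wt cells (0.64 ± 0.10, 1.56-fold, adjusted p = 0.0123). Tgfb2 lay at 11.60 and 11.79 in homozygous cells and at 11.05 and 11.24 in wt cells (0.55 ± 0.10, 1.46-fold, adjusted p = 0.0297). The homozygous arrays were above the wt arrays for both genes, as for every gene called higher, and 3 further probe sets of Tgfb2 differed by 0.32 to 0.50. Tgfb3 differed by 0.41 (adjusted p = 0.2) and the latent TGFb binding proteins Ltbp1 to Ltbp4 by 0.00 to 0.27, none past the test. Itgb8, whose integrin frees latent TGFb, differed by 1.07 ± 0.30 (adjusted p = 0.0901). Of the 10 genes of this list, 2 were higher and 0 lower, which is 20% called against 1.77% of all genes.

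None of 15 receptor and Smad genes was called, with a median of 0.16. Tgfbr1 lay at 10.49 and 10.39 in homozygous cells and at 10.10 and 10.18 in wt cells, 1.23-fold higher with an adjusted p of 0.137. Tgfbr2 lay at 11.85 and 12.08 in homozygous cells and at 11.55 and 11.40 in wt cells (0.49 ± 0.14, adjusted p = 0.105). Both homozygous arrays were above both wt arrays for the probe sets used of these 2 receptors, as in 22.2% of all genes tested. A further Tgfbr1 probe set overlapped, with 7.20 and 7.23 in homozygous cells and 7.26 and 6.06 in wt cells. Another was dim in both wt arrays and differed by 0.85. The signal transducers Smad2 and Smad3 differed by 0.02 and -0.08. A level of RNA does not report a point mutation.

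Of 14 feedback inhibitors and extracellular antagonists, 2 were higher and 1 was lower (21.4% called, against 1.77% of all genes). Pmepa1, which sequesters receptor-regulated Smads, had 13.38 and 13.41 in homozygous cells and 12.76 and 13.02 in wt cells (0.51 ± 0.08, adjusted p = 0.0142). Skil, the Smad corepressor SnoN, had 12.15 and 12.12 in homozygous cells and 11.85 and 11.56 in wt cells (0.43 ± 0.09, adjusted p = 0.0377). Fst, the secreted activin antagonist follistatin, went the other way, with 12.26 and 12.10 in homozygous cells and 13.28 in both wt arrays (-1.10 ± 0.22, adjusted p = 0.0324). A further Fst probe set fell by 1.11 as well. Smad7, the inhibitory Smad, lay at 10.81 and 10.71 in homozygous cells and 11.26 and 11.05 in wt cells (adjusted p = 0.356), and another probe set for it differed by only 0.03.

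Of 24 genes known to be induced by TGFb, 3 were higher and 0 lower (12.5% called, against 1.77% of all genes), and the list had a median of 0.18 against -0.02 over all genes. Lif, a cytokine of the IL-6 family, had 8.83 and 8.82 in homozygous cells and 7.88 and 7.79 in wt cells (0.99 ± 0.19, 1.99-fold, adjusted p = 0.0305). Nox4, an NADPH oxidase, had 10.12 and 9.98 in homozygous cells and 9.36 and 9.11 in wt cells (0.82 ± 0.16, adjusted p = 0.0305). Bhlhe40, a transcriptional repressor, had 10.92 and 10.99 in homozygous cells and 10.40 and 10.01 in wt cells (0.75 ± 0.11, adjusted p = 0.0116). Each had its homozygous arrays close together and, like every gene called higher, above both wt arrays. Il11 lay at 7.08 and 6.76 in homozygous cells and at 6.95 and 7.92 in wt cells, with overlap (adjusted p = 0.343). The matricellular gene Ccn2 differed by 0.04 and Acta2, smooth muscle actin, by 0.06, both at levels above 15 in all 4 arrays. Id1, a target of BMP signalling, had 11.01 and 10.91 in homozygous cells and 10.91 and 12.42 in wt cells (adjusted p = 0.301).

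The response of the heterozygous cells to TGFb also defined targets. That contrast involves neither the homozygous nor the wt arrays, although the estimate of the spread is shared by all 18 arrays. After 24 h of TGFb 2.95% of all genes were called higher and 4.12% lower in heterozygous cells, and after 4 h 15.7% and 13.2%. Over 2-fold among these were 121 raised and 155 lowered genes at 24 h. For each median given with a covariate, the genes were chosen anew by this rule in the fit with that covariate. Such a median is therefore not of the same genes and does not show how these genes shift. Of the 121 raised genes, 11 were higher (9.09%) and 0 lower in untreated homozygous cells, with a median of 0.30 (0.13 with the macrophage covariate) and 98 of 121 above zero. Of the 155 lowered genes, 2 were higher (1.29%) and 8 lower (5.16%), with a median of -0.14 (-0.086 with the macrophage and -0.32 with a muscle marker covariate). At 4 h the picture was mixed: of 307 raised genes 11 were higher and 2 lower (median -0.07, and 0.029 and 0.010 with the macrophage and muscle covariates), and of 292 lowered genes 9 were higher and 2 lower (median 0.17). Among those raised by 24 h of TGFb in heterozygous cells and higher in untreated homozygous cells were Lif, Nox4, Bhlhe40, Tgfb1 and Wnt9a, and among those lowered were Fst, Lpl, Fgf7, Mbnl3, Osr1 and Crabp1. Of these genes, Crabp1 and Nox4 moved the other way at 4 h. After 4 h of TGFb in heterozygous cells Crabp1 differed by 0.78 (adjusted p = 0.0154) and Nox4 by -0.67 (adjusted p = 0.00828). Dhrs3 and Fzd1 were higher in homozygous cells but fell by 1.48 and 1.27 log2 after 4 h of TGFb in heterozygous cells. At 24 h Dhrs3 was higher by 0.76 (adjusted p = 0.0303) in heterozygous cells, and Fzd1 differed by 0.01 (adjusted p = 0.996). These sets overlap the lists already described, and shares of all genes tested are 1.15% higher and 0.615% lower. Above zero were 4652 of the 10078 genes tested.

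Elastic fibre and matrix glycoprotein genes contributed 3 rises and 0 falls among 17 measured (17.6% called, against 1.77% of all genes). Eln, which encodes elastin, had 11.48 and 11.34 in homozygous cells and 10.08 and 9.89 in wt cells (1.42 ± 0.19, 2.68-fold, adjusted p = 0.00388), and a further Eln probe set rose by 1.07. Emilin2, an elastic fibre glycoprotein, had 7.18 and 6.61 in homozygous cells and 5.67 and 5.92 in wt cells (1.10 ± 0.20, adjusted p = 0.0244). Spon1, a secreted matrix protein, was dim in wt cells at 3.86 and 3.74 and had 5.40 and 5.38 in homozygous cells, at least 1.31-fold higher (adjusted p = 0.0363). Mfap4, a microfibril-associated protein, had 10.21 and 9.78 in homozygous cells against 9.25 and 7.92 in wt cells and did not pass (adjusted p = 0.118).

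Collagen chains were not called, 0 of 20, although 17 of 20 had a positive difference, against 4652 of 10078 genes tested, and the median was 0.26. Col1a1, a chain of type I collagen, lay at 15.60 and 15.62 in homozygous cells and 15.34 and 15.02 in wt cells (0.43 ± 0.11, adjusted p = 0.0701). Among 19 matrix proteases and inhibitors 1 was higher (5.26% called, against 1.77% of all genes). This gene, Mmp2, gelatinase A, had 13.13 and 13.17 in homozygous cells and 12.44 and 12.57 in wt cells (0.64 ± 0.12, adjusted p = 0.0305). None of 22 contractile genes was called, with a median of 0.02.

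**Figure D3:**
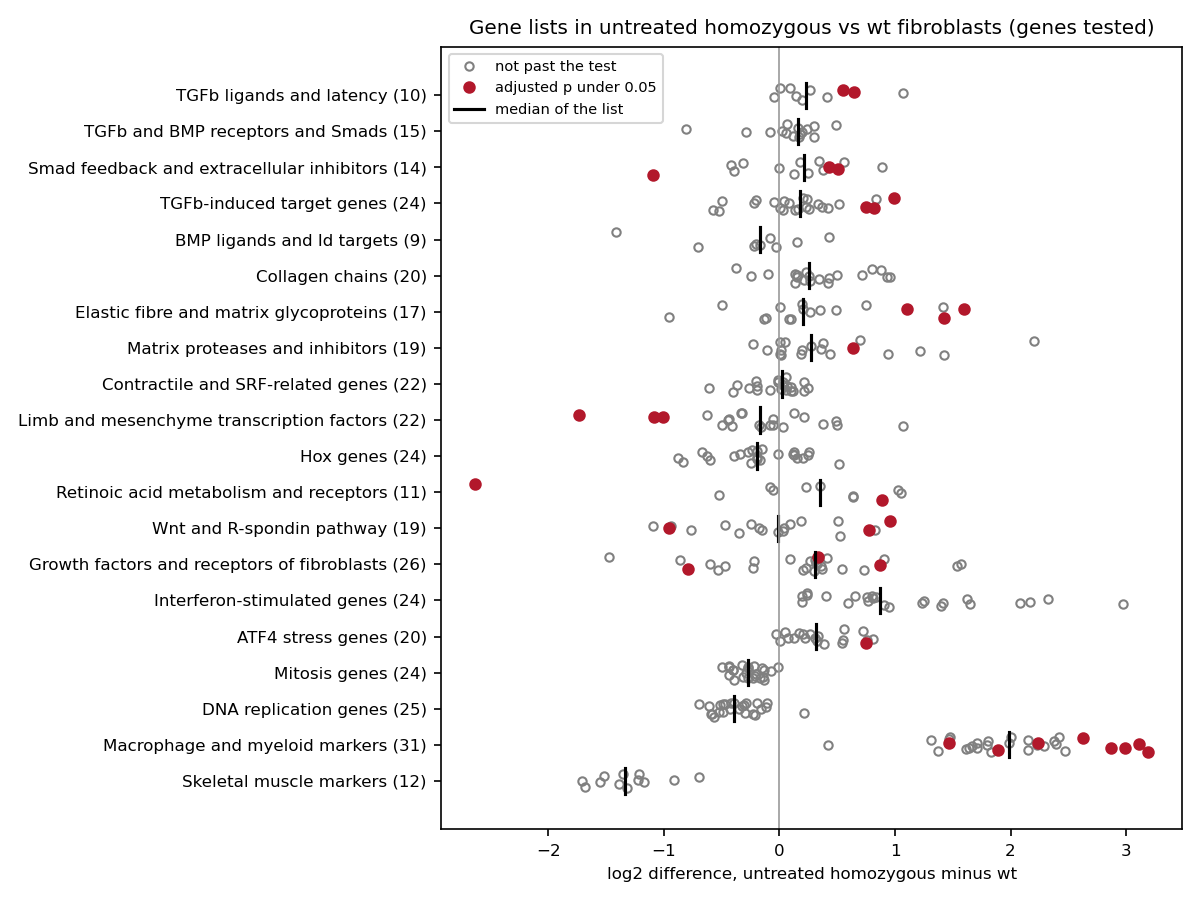
Log2 difference between untreated homozygous and wt cells (horizontal axis) for each tested gene of 20 lists, filled where the adjusted p was under 0.05, with a bar at the list's median and the number tested in brackets. Macrophage markers lie to the right with a median of 1.99, muscle markers to the left at -1.34, and the TGFb and matrix lists near 0.2 with a few genes past the test.

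Of 22 genes of limb and mesenchyme patterning 0 were higher and 3 lower (13.6% called, against 1.77% of all genes), with a median of -0.17 against -0.02. Osr1, a zinc finger factor of connective tissue and kidney mesenchyme, had 8.17 and 8.61 in homozygous cells and 10.20 and 10.05 in wt cells (-1.73 ± 0.33, 3.33-fold lower, adjusted p = 0.0279). Emx2, a homeobox gene of the limb girdle and urogenital system, had 6.67 and 6.54 in homozygous cells and 7.75 and 7.63 in wt cells (-1.09 ± 0.25, adjusted p = 0.0472). Shox2, which is needed for the proximal limb skeleton, had 6.67 and 6.66 in homozygous cells and 7.52 and 7.82 in wt cells (-1.01 ± 0.19, adjusted p = 0.0294). In all 3 the arrays of a genotype lay closer to each other than to the other genotype. They were named because they were called, and no called gene had overlapping arrays, so this adds no support. Msx1 differed in the other direction by 1.07 without passing (adjusted p = 0.0722), and the hedgehog co-receptor Gas1 differed by 0.50 ± 0.34 (adjusted p = 0.473). Of 24 Hox genes 0 were called, with a median of -0.19.

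Crabp1, which binds retinoic acid in the cytoplasm and passes it on for breakdown, had the smallest adjusted p of the comparison. It lay at 9.40 and 9.24 in homozygous cells and at 11.58 and 12.33 in wt cells (-2.63 ± 0.21, 6.21-fold lower, adjusted p = 0.000178). Dhrs3, which reduces retinaldehyde back to retinol, was higher at 9.71 and 9.57 in homozygous cells against 8.77 and 8.74 in wt cells (0.88 ± 0.19, adjusted p = 0.0426). Of the 11 genes of retinoic acid metabolism measured these 2 were called (18.2%, against 1.77% of all genes). The retinaldehyde dehydrogenase Aldh1a2 differed by 1.05 (adjusted p = 0.0643) and the receptor Rarb by 1.03 (adjusted p = 0.0616). The homozygous arrays lay above the wt arrays in both, as in 22.2% of all genes tested.

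Wnt and growth factor genes changed in both directions. In the Wnt list of 19 genes 2 were higher and 1 lower (15.8% called, against 1.77% of all genes). The receptor Fzd1 had 11.16 and 11.36 in homozygous cells and 10.21 and 10.39 in wt cells (0.96 ± 0.16, adjusted p = 0.0154). The ligand Wnt9a had 8.18 and 8.48 in homozygous cells and 7.48 and 7.64 in wt cells (0.77 ± 0.13, adjusted p = 0.0142), and Dkk2, a secreted modulator of Wnt coreceptors, had 8.75 and 8.94 against 10.07 and 9.53 (-0.96 ± 0.21, adjusted p = 0.0426). The list's median was -0.01. Of 26 genes in a mixed list of growth factors and receptors of fibroblasts, 2 were higher and 1 lower (11.5% called, against 1.77% of all genes). Fgf2 was higher by 0.87 ± 0.19 and Igfbp7, a secreted binding protein, by 0.33 ± 0.05. Fgf7, which acts on epithelia, had 10.98 and 11.04 in homozygous cells and 11.62 and 11.98 in wt cells (-0.79 ± 0.18, adjusted p = 0.0472). Lpl, lipoprotein lipase, had 7.32 and 7.08 in homozygous cells and 8.22 and 8.26 in wt cells (-1.04 ± 0.16, adjusted p = 0.0116). Of 20 ATF4 stress genes 1 was called (5%, against 1.77% of all genes), Chac1, a glutathione-degrading enzyme, which was higher by 0.75 ± 0.16. A positive difference was seen in 19 of 20, against 4652 of 10078 genes tested.

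The other large falls belonged to no common list. Adcyap1r1, the receptor of the neuropeptide PACAP, was dim in homozygous cells at 4.21 and 3.65 and had 6.53 and 7.70 in wt cells, at least 4.32-fold lower in homozygous cells (adjusted p = 0.028). Kcnn4, a calcium-activated potassium channel, had 4.45 and 3.23 in homozygous cells and 5.75 and 6.92 in wt cells, at least 2.53-fold lower (adjusted p = 0.0421). Gpr149, an orphan receptor, had 5.56 and 5.09 in homozygous cells and 7.85 and 7.07 in wt cells (-2.13 ± 0.29, adjusted p = 0.00485). The wt arrays of these 3 differed from each other by more than the SE, and lay above both homozygous arrays, as for every gene called lower. Snhg6, a small nucleolar RNA host gene, had 12.28 and 12.20 in homozygous cells and 13.67 and 13.51 in wt cells (-1.35 ± 0.17, adjusted p = 0.00378). S100a4, a calcium-binding protein that is also a fibroblast marker, had 11.27 and 11.55 in homozygous cells and 12.75 and 13.06 in wt cells (2.83-fold lower, adjusted p = 0.0274). It was the 1 of 14 fibroblast markers that was called (7.14%, against 1.77% of all genes). Esm1, Kcnab1, Mbnl3, Lce1h, Prcp, Siglecg and Mogat2 fell by 1.17 to 1.88.

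Cell cycle genes had small differences of like sign that did not pass. All 24 mitosis genes had a negative difference, with a median of -0.27. In 12 of them both homozygous arrays lay below both wt arrays, against 24.6% of all genes. Of 25 DNA replication genes 24 had a negative difference, with a median of -0.39, and in 19 both homozygous arrays were the lower, against 24.6% of all genes. The largest was Gins1, a subunit of the replicative helicase complex, at 8.07 and 7.50 in homozygous cells and 8.21 and 8.75 in wt cells (adjusted p = 0.13). The cell cycle inhibitor Cdkn2a lay at 7.04 and 7.84 in homozygous cells and at 7.68 and 6.43 in wt cells, with overlap. Interferon-stimulated genes had a positive difference in 24 of 24, against 4652 of 10078 genes tested, with a median of 0.87 and 0 called. Ifit1 had 7.06 and 6.79 in homozygous cells and 5.60 and 2.30 in wt cells (adjusted p = 0.091), so wt replicate 2 alone lay under log2 5.

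Genes next to Tgfbr1 were examined in their order along the chromosome. Of the 50 tested genes on each side of Tgfbr1 on chromosome 4, 4 of 100 were called (4%), against 3 of 525 on the rest of the chromosome (0.571%) and 1.77% of all genes. Slc25a51, a mitochondrial carrier, had 11.82 and 11.87 in homozygous cells and 11.14 and 10.64 in wt cells (0.96 ± 0.19, adjusted p = 0.0341). Tmeff1, a transmembrane protein, had 11.97 and 11.88 in homozygous cells and 11.49 and 11.42 in wt cells (0.47 ± 0.08, adjusted p = 0.0147). Zfp462, a zinc finger gene, had 9.53 and 9.55 in homozygous cells and 10.10 and 10.11 in wt cells (-0.57 ± 0.11, adjusted p = 0.0305). The fourth, Alad, an enzyme of haem synthesis, had 8.80 and 8.70 in homozygous cells and 9.87 and 10.97 in wt cells (-1.67 ± 0.29, adjusted p = 0.0185). These neighbours were named after their values were seen. Over all chromosomes with over 100 genes the share called ran between 0.604% on chromosome 10 and 3.14% on chromosome 13. Whether the strain of the flanking sequence or a base under a probe differs between the genotypes was not tested.

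**Figure D4:**
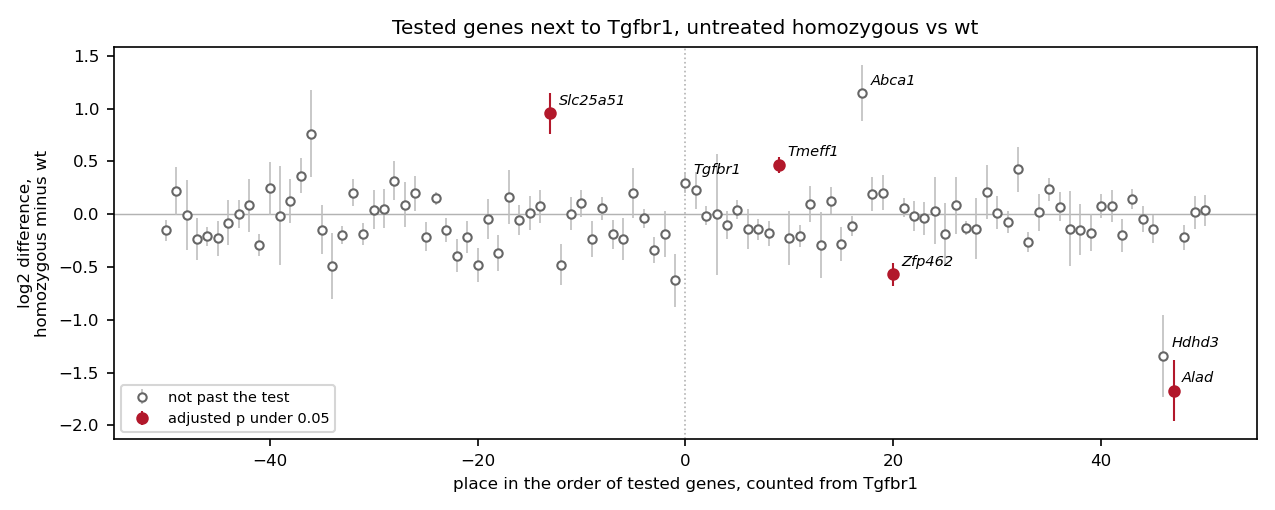
Log2 difference between untreated homozygous and wt cells (vertical axis, bars are SE) for Tgfbr1 and the 50 tested genes on each side of it, in gene order along chromosome 4 (horizontal axis). Filled points passed the test: Slc25a51 and Tmeff1 higher, Zfp462 and Alad lower, while Abca1 at 1.15 (adjusted p = 0.0519) and Hdhd3 at -1.34 (0.101) did not.

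The genotype difference was also measured after TGFb, in arrays that may share embryos or cultures with the untreated ones. The replicate differences of untreated arrays correlated across genes with those at 4 h and 24 h at 0.453 and 0.415 in homozygous cells and at -0.448 and -0.622 in wt cells, and Xist was high in the same replicate throughout in homozygous cells but in the other replicate after TGFb in wt cells. The times are therefore not independent of each other. Of the 178 genes 165 kept their sign after 4 h, and 63 of them were called there (35.4%, against 1.43% of all genes at 4 h). After 24 h 161 kept their sign and 31 were called (17.4%, against 0.486% of all genes), and 0 were called in the opposite direction at either time. Called at all 3 times were 25 genes, 15 higher and 10 lower. They include Stab1, Irf8, Msr1, Ncf4, Gatm, Runx1, Apoe and Tgfb1 among the higher and Crabp1, Gpr149, Osr1, Alad, Mbnl3, Snhg6 and Shox2 among the lower.

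Crabp1 lay at 10.42 and 10.17 in homozygous cells after 4 h, against 12.35 and 12.38 in wt cells, and after 24 h at 8.35 and 8.04 in homozygous cells against 11.18 and 10.73 in wt cells. Osr1 lay at 5.41 and 6.25 in homozygous cells after 4 h against 8.32 and 8.58 in wt cells, and at 24 h it differed by -2.09 (adjusted p = 0.0125). For both genes the arrays of the genotypes stayed apart at the times given. Eln was higher at 4 h (1.33, adjusted p = 0.00429) and at 24 h it differed by 0.79 (adjusted p = 0.0965). Skil and Pmepa1, called in untreated cells, differed by -0.07 and 0.10 after 4 h and by 0.11 and 0.14 after 24 h. Whether the genotype difference itself changed with TGFb was tested as an interaction, and 0 genes passed at 4 h (847 at an unadjusted p under 0.05, 8.40%) and 0 at 24 h (577, 5.73%). The interaction for Skil at 4 h was -0.50 (adjusted p = 0.491).

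**Figure D5:**
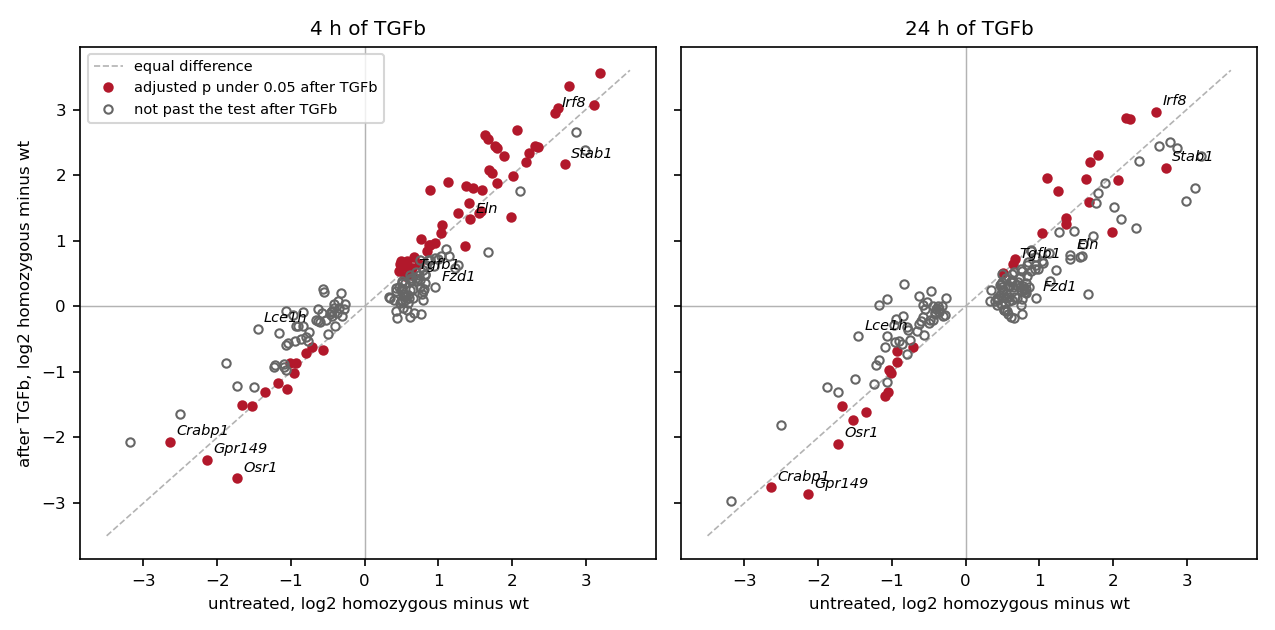
Log2 difference between homozygous and wt cells after 4 h (left) or 24 h (right) of TGFb (vertical axis) against the same difference in untreated cells (horizontal axis) for the 178 genes called in untreated cells, with a dashed line of equal difference. Filled points passed the test after TGFb as well, 63 at 4 h and 31 at 24 h, and none of them lies on the other side of 0.

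Untreated heterozygous cells are set beside the homozygous cells with the caution that both were compared with the same wt arrays. Heterozygous against wt gave 93 called genes (0.923%), 78 higher (0.774%) and 15 lower (0.149%), and homozygous against heterozygous gave 0 (340 at an unadjusted p under 0.05, 3.37%). Crabp1 differed from wt by -2.63 in homozygous and by -2.36 in heterozygous cells, Runx1 by 1.99 and 1.93, and Snhg6 by -1.35 and -1.51. Gatm lay at 8.62 and 8.87 in homozygous cells and at 10.41 and 9.91 in heterozygous cells, the smallest unadjusted p among the genes named (difference -1.41, adjusted p = 0.0785). Eln lay at 11.48 and 11.34 in homozygous cells and at 10.40 and 10.66 in heterozygous cells (0.88, adjusted p = 0.652). Alad lay at 8.80 and 8.70 in homozygous cells and at 9.88 and 9.90 in heterozygous cells (-1.14, adjusted p = 0.956). The arrays of both mutants did not overlap for these 3 genes, and none of the differences passed the test. Tgfb1 lay at 10.42 and 10.34 in homozygous cells and at 10.18 and 10.21 in heterozygous cells (0.18, adjusted p = 1).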

How the data were processed

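RNA was measured on 18 Affymetrix mouse arrays, and the authors deposited linear intensity values per probe set, made with GCRMA per the submitters' processing notes, with no version stated. GCRMA subtracts a background modelled from probe sequence, normalizes arrays to each other and summarizes probes, which compresses dim values towards a floor. No scan date was at hand to serve as a batch. Values were used as log2 with no other normalization. Of the 45101 probe sets, 34945 had 1 gene symbol, 932 several and 9160 none, apart from 64 controls, and 34741 of the single symbols matched RefSeq. A probe set was kept at log2 5 or more in at least 2 arrays, and each gene was its brightest probe set with 1 symbol, which gave 10078 genes. Other probe sets of the named genes numbered 33, of which 26 were at log2 5 or more in all 4 arrays, and 24 of these had the sign of the one used, all but those of Acta2 and Smad7. In each array 39.5 to 40.4% of probe sets were at log2 5 or more, and the number of arrays limits precision.

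In R 4.3.3 with limma 3.58.1, 1 mean per group was fitted over 9 groups and 18 arrays, which left 9 residual degrees of freedom, and tests were two-sided and moderated with a trend on intensity. Adjustment was by Benjamini-Hochberg across the genes tested. The spread was pooled over groups, although the wt pair varied more than the homozygous pair. The fit took the 18 arrays as independent, while arrays of a genotype at different times may share embryos. The 9 degrees of freedom, the SE and the adjusted p may therefore overstate the replication behind a genotype difference. Where both arrays of a group were dim, the fold is a bound with the dim group set at log2 5, or at its own value where higher. Named genes are the 15 largest rises and 15 largest falls among called genes whose arrays do not overlap and whose higher group has both arrays at log2 5 or more, 12 key genes (11 measured), and at most 5 called genes from each of 38 gene lists (605 genes tested). Predicted genes are left unnamed. The comparison, lists and rule were chosen with earlier results of these data known. Alternatives were other filters, normalizations, probe set choices, variance models, sets of arrays, replicate blocks and an Xist or macrophage covariate, and leaving out each array. A muscle marker covariate and crossed wt replicate numbers were chosen after seeing the data. Replicate numbers were not used for pairing, since no label says that they mark a shared embryo or day and the replicate differences of homozygous and wt arrays correlated at -0.06 across genes. Within a genotype, untreated and treated arrays correlated at 0.453 and 0.415 (homozygous) and at -0.448 and -0.622 (wt), so numbers may mark shared embryos, crossed in wt, and blocks on them are among the alternatives.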

Additional observations from a re-analysis of the deposited data

How the results depend on the processing

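All 54 named genes that were called kept their direction in every alternative, and of the 178 called genes all kept it except 1 when a gene's probe sets were averaged. Direction could hardly change, since other variance models, replicate blocks and sets of groups leave the difference itself as it was. Leaving out 1 array cannot reverse a gene whose arrays do not overlap, which holds for all 178. Still called were 10 of the 178 with array weights, 57 with only the genotypes compared, 77 with no filter and 178 with the Xist covariate. The number called in untreated homozygous against wt cells (178, with 116 higher and 62 lower) was 104 (67 and 37) with no filter, 10 (6 and 4) with array weights, 0 with only the groups compared, 70 (47 and 23) with only the genotypes compared, 293 (193 and 100) with an Xist covariate, 682 (443 and 239) with the macrophage covariate, 393 (245 and 148) with the muscle covariate and 1058 (586 and 472) with crossed wt replicate numbers in a block. Leaving out 1 array gave 11 to 960 (6 to 306 higher, 5 to 654 lower). The replicate block gave 136 over all groups and 266 within genotype (104 lower), and without an intensity trend 36 were lower. A block within genotype, crossed or not, takes the spread between the replicates out of the error of a genotype difference. If the numbers mark embryos, that is the spread between embryos, so the higher counts with such blocks are no added support for the calls. With only the groups compared, none were called at 4 h, 24 h or in heterozygous cells either. Fewer arrays give fewer degrees of freedom, but such a fit also does not count arrays of other times as further replicates. Which of these lowers the counts was not tested. Crabp1, Gatm, L1cam, Rras2, Runx1 and Snhg6 were called under every other alternative. The 8 macrophage markers called became 1 with no filter or the muscle covariate, 4 with no intensity trend or the block over all groups, 0 with array weights, only the groups compared or the macrophage covariate, 2 with only the genotypes compared, 19 with the Xist covariate, 30 with crossed numbers, and 0 to 19 without 1 array.

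Heterozygous against wt (93) gave 37 with array weights, 27 with only the genotypes compared, 513 and 206 with the macrophage and muscle covariates, 476 with crossed numbers and 14 to 548 without 1 array. Homozygous against heterozygous (0) gave 7 with no filter and with only the genotypes compared, 14 with array weights, 1 with the block within genotype, 8 with the macrophage covariate and 31 with crossed numbers. At 4 h (144) homozygous against wt gave 18 with array weights, 73 with only the genotypes compared, 250 with the block within genotype, 263 with the Xist covariate, 1303 and 813 with the macrophage and muscle covariates, 903 with crossed numbers and 16 to 1073 without 1 array. At 24 h (49) it gave 206, 31, 146, 119, 474, 318 and 695 in the same order, and 9 to 57 without 1 array. The interaction at 4 h (0) gave 4 with no filter, 1 with quantile normalization, equal array medians or the block over all groups, and 0 to 157 without 1 array, and that at 24 h 0 to 4. The median of genes raised at 24 h in heterozygous cells (0.30) was 0.13 with the macrophage covariate and that of lowered genes (-0.14) was -0.32 with the muscle covariate. Each fit chose its own raised and lowered genes, so these medians are not of the same genes.

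Reversals concerned uncalled key genes. Acta2 (0.06) became -0.21 with averaged probe sets, -0.47 without cross-hybridizing ones and -0.18 and -0.067 with the macrophage and muscle covariates, and ran from -0.030 without wt replicate 2 to 0.14 without wt replicate 1. Ccn2 (0.04) became -0.12 with either covariate and ran from -0.06 without wt replicate 2 to 0.14 without wt replicate 1. Cdkn2a (0.38) became -2.15 and -0.79 with the covariates, was -0.02 without homozygous replicate 2, and ran from -0.24 without wt replicate 2 to 1.01 without wt replicate 1. Id1 (-0.70) became 0.049 with the muscle covariate and ran from -1.46 without wt replicate 1, where it was called, to 0.053 without wt replicate 2. Il11 (-0.52) became 0.10 and 0.093 with the covariates and was called at -1.01 without wt replicate 1, and Smad7 became 0.029 without cross-hybridizing probe sets. The cause of these shifts was not tested.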

Other observations

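Of the genes that belong to none of the lists, 6 that were called higher in untreated homozygous cells encode lysosomal proteins. They were picked out after their values were seen, and no list of lysosomal genes was tested, so they say nothing of such genes as a group. Ctsc, a lysosomal protease, had 13.34 and 13.47 in homozygous cells and 12.69 and 12.05 in wt cells (1.04 ± 0.21 SE, limma adjusted p = 0.0341). Arsb, a sulfatase that degrades glycosaminoglycans, had 9.96 and 10.17 in homozygous cells and 9.16 and 9.29 in wt cells (0.84 ± 0.16). Atp6v1a, a subunit of the proton pump that acidifies lysosomes, had 12.08 and 12.22 in homozygous cells and 11.36 and 11.44 in wt cells (0.75 ± 0.15). Another pump subunit, Atp6v0d1, the chloride transporter Clcn7 and the protease Lgmn were higher by 0.42 to 0.50. The homozygous arrays lay above the wt arrays in all 6, which holds for each of the 116 genes called higher. RNA of macrophage markers differed between the same arrays as described, and the part of macrophages in these values was not tested.

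Cav1 and Cav2, caveolins of the small membrane pits called caveolae, were lower, and these too were picked out after their values were seen. Cav1 had 12.88 and 12.95 in homozygous cells and 13.66 and 13.59 in wt cells (-0.71 ± 0.09, adjusted p = 0.00388), and Cav2 had 10.51 and 10.95 in homozygous cells and 11.53 in both wt arrays (-0.80 ± 0.16, adjusted p = 0.0305). Cav1 was lower by 0.61 after 4 h and by 0.62 after 24 h of TGFb as well (adjusted p = 0.00625 and 0.0101). Of the cavins, which also coat caveolae, Cavin1, Cavin2, Cavin3 and Cavin4 differed by -0.19, -0.18, -0.66 and -0.23 and none passed the test (adjusted p = 0.104 to 0.804). Cavin4 was dim in both homozygous arrays (4.78 and 4.85) and lay at 4.95 and 5.14 in wt cells, so its difference is not a measured fold. Grb14, an adaptor that inhibits the insulin receptor, had 10.32 and 10.51 in homozygous cells and 11.30 and 11.39 in wt cells (-0.93 ± 0.12, adjusted p = 0.00378), and L1cam, a cell adhesion molecule, had 6.97 and 7.04 against 5.45 and 5.83 (1.37 ± 0.17, adjusted p = 0.00318).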
